A study of Squalius alburnoides and Squalius pyrenaicus with 4 samples.

Results

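The pancreas microRNAs miR-375, miR-216a, miR-216b and miR-217, were followed on 4 microarrays of the *Squalius alburnoides* complex, a group of Iberian cyprinid fishes of hybrid origin. Their probes were those whose name on the chip held dre-miR-375, dre-miR-216a, dre-miR-216b or dre-miR-217 exactly, which gave 4 of the 218 zebrafish probes and of 1154 probes of any kind. RNA of adult PAA (the triploid hybrid), PA (the diploid hybrid), AA (the diploid form with 2 A genomes) and PP (*S. pyrenaicus*, the parental species that gave the P genome) was pooled from liver, brain and muscle of about 3 individuals per form, labelled with Cy3 and hybridized to 1 array per form. PAA, PA and AA fish came from the Almargem River and PP fish from Colares, so genome and river cannot be told apart where PP is compared. Both hybrid arrays were on 1 slide and both non-hybrid arrays on the other, so slide and hybrid state cannot be told apart. The PAA and AA arrays lay elsewhere on their slides (lowest y coordinate 33470 and 33560 microns) than those of PA and PP (2460 and 2550). Position therefore cannot be told apart from ploidy between PAA and PA, nor from genome between AA and PP. The study describes AA fish of this complex as males and PAA as mainly females. The sex of the pooled fish was not given, so sex may also differ between the pools. With 1 array per form no difference between forms had a replicate check and no test was run. The spread given below is that between the 4 spots of a probe on the same array.

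miRNAs are short RNAs that pair with messenger RNAs and repress them. miR-375 is the most characteristic miRNA of the endocrine pancreas, where it is made in the islet cells and acts on insulin secretion, and in zebrafish it is needed for islet development and is also found in the pituitary. miR-216a, miR-216b and miR-217 come from 1 vertebrate gene cluster and mark the acinar cells of the exocrine pancreas, which make digestive enzymes. In many cyprinids the exocrine pancreas is not a compact organ but lies dispersed along the gut and within the liver, which is why the organ is called hepatopancreas. No pancreas was named among the sampled tissues, and a liver sample of such a fish can hold pancreas tissue. In a pool of 3 tissues, fewer cells of a type and less RNA per cell cannot be told apart.

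Of these miRNAs, miR-375 was the only one detected on all 4 arrays. A spot was taken to pass if it had been kept at the scan with a foreground of 2 times the local background or more, and a probe was detected with at least 2 passing spots of 4. By this rule miR-216a was detected on PA and AA, miR-217 on PA and miR-216b on none. On the zebrafish probes the islet miRNA thus passed in every form, and each acinar miRNA failed in at least 2 forms. Of all 218 zebrafish probes, 114 were detected on all 4 arrays, so failing on some array was frequent. A probe named for human miR-216, described below, passed on all 4 arrays.

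The signal of miR-375 (foreground minus local background, in intensity units) was 199, 197, 141 and 153 in the 4 spots of PAA. It was 200, 246 and 201 in the 3 kept spots of PA, where the spot of 765 had been set aside. On AA the 4 spots gave 127, 121, 165 and 146. These forms lay close together, the PA spots just above those of PAA and the ranges of PAA and AA overlapping. On PP the 3 kept spots gave 466, 483 and 476, above every kept spot of the other forms, and the spot of 3186 had been set aside. The 2 spots set aside were uneven, with a standard deviation between pixels of 2051 on PA and 9355 on PP. All 16 spots were above 2 times their background, 14 were kept and none was of 1 pixel.

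As geometric means over passing spots, miR-375 had a signal of 171 in PAA, 215 in PA, 139 in AA and 475 in PP, with an SD between spots on the log2 scale of 0.25, 0.17, 0.20 and 0.03 in the same order. On each array that signal stood at the percentile 39.5 in PAA, 46.6 in PA, 32.7 in AA and 78.7 in PP among the zebrafish probes detected there, a place that also depends on how well each probe binds. The spots labelled BLANK served as the background level. The median kept miR-375 spot was above 39 of 40 kept BLANK spots in PAA, 30 of 32 in PA, 35 of 40 in AA and 32 of 34 in PP. The geometric mean was above the 95th percentile of the BLANK spots on PAA (103.2) and PA (209.1) and below it on AA (202.8) and PP (515.9), so that on PP, where the miRNA was brightest, the few bright BLANK spots were brighter still. Of all detected zebrafish probes, 99.4% were above that percentile in PAA, 53.7% in PA, 42.9% in AA and 19.9% in PP.

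**Figure D1:**
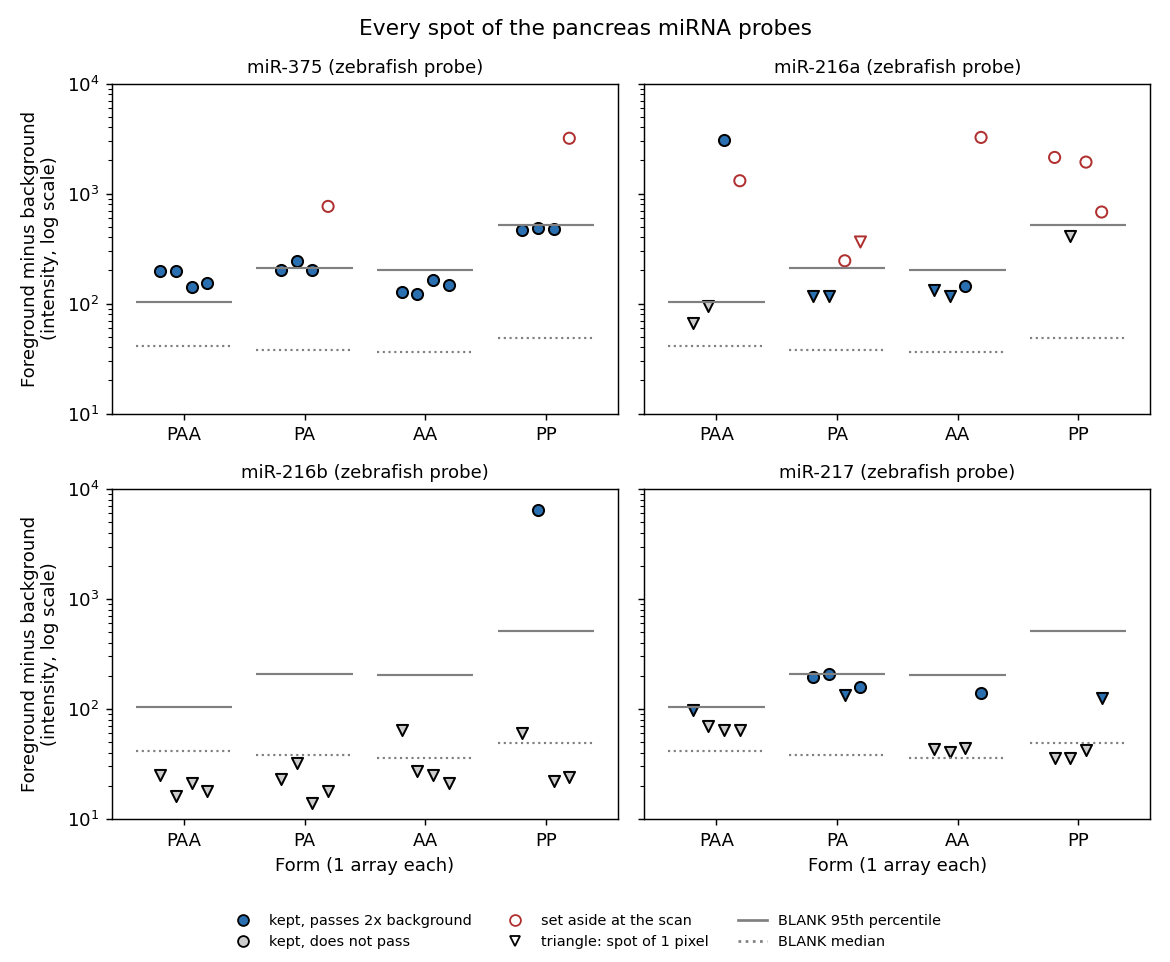
Signal of every spot (foreground minus local background, log scale) of the zebrafish probes of miR-375, miR-216a, miR-216b and miR-217 on the PAA, PA, AA and PP arrays. Filled circles are kept spots that pass, grey symbols kept spots that do not, open red symbols spots set aside at the scan, and triangles spots of 1 pixel; lines mark the median and 95th percentile of the BLANK spots. The 3 kept miR-375 spots of PP, at 466 to 483, lie above all kept miR-375 spots of the other forms, and most miR-216b spots lie below the BLANK median.

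The acinar miRNAs gave a different picture. For miR-216a the kept spots had signals of 66, 96 and 3080 on PAA, with 1309 set aside, and 118 and 118 on PA, with 245 and 363 set aside. The kept spots were 133, 118 and 143 on AA, with 3243 set aside, and 412 alone on PP, with 2133, 1934 and 680 set aside. Spots of 1 array therefore differed more than the kept spots of PA and AA did between those arrays. The PAA spot of 3080 measured 2 pixels, with a standard deviation between pixels of 1498. Of the 16 spots 7 had been set aside, 6 passed and 8 were of 1 pixel.

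Detection of miR-216a on PA rested on 2 spots at 2.009 and 2.044 times their background, and the single kept spot of PP missed the limit at 1.998 times. The lower printed block that holds this probe lost 35.7% of its spots to the scan in PAA, 67.9% in PA, 37.8% in AA and 80.6% in PP, against 8.55%, 17.8%, 9.76% and 15.1% of all spots of these arrays. The geometric mean signal was 118 on PA (2 spots) and 131 on AA (3 spots), both under the BLANK 95th percentile of their array. After quantile normalization PA was lower than AA by 0.42 on the log2 scale (SE between spots 0.08), with overlapping spots. That SE includes no spread on PA, where both spots of 1 pixel read 118, and the difference ranged between -0.15 without scaling and -1.13 with spots set aside included.

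For miR-216b the spots gave signals of 25, 16, 21 and 18 on PAA, 23, 32, 14 and 18 on PA, and 64, 27, 25 and 21 on AA. On PP they gave 60, 6407, 22 and 24. Of the 16 spots 15 were of 1 pixel and did not pass. The PP spot of 6407, the only one that passed, covered 5 pixels with a standard deviation between pixels of 9191, and the other 3 PP spots were in the range of the other arrays. The median spot of miR-216b was above 2 of 40 kept BLANK spots in PAA, 2 of 32 in PA, 3 of 40 in AA and 15 of 34 in PP, so that its usual signal was that of an empty spot or less.

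Among the zebrafish probes, miR-217 was the acinar miRNA with the clearest signal, and only on PA. Its spots gave 98, 70, 65 and 64 in PAA, 196, 206, 135 and 158 in PA, 43, 41, 44 and 140 in AA, and 36, 36, 42 and 125 in PP. All 4 PA spots passed and 1 spot did on each other array. The PA spots were above those of PAA and PP without overlap, while the AA spot of 140 lay within the PA range. The geometric mean on PA was 171 (SD between spots 0.28 on the log2 scale), at the percentile 31.3 of detected probes. The PA spots of 196 and 206 lay in a block with a median background of 156, against 111 for the array. In that block it was 88 in PAA, 88 in AA and 98 in PP. The PA block lost 14.3% of its spots to the scan, against 17.8% for the array. The local background of the 2 spots was 122 and 107, and its part in their signal was not tested.

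Where miR-217 was not detected only a bound was formed, against the lowest signal of any detected zebrafish probe on the dimmer array. That lowest signal was 94.4 on PAA, 99.7 on AA and 110 on PP, against 111 on PA. Before scaling, a bound on this floor therefore exceeds 1 for any probe detected on PA alone. Single kept miR-217 spots reached 98 on PAA, 140 on AA and 125 on PP, above that floor. For these bounds the arrays were scaled to the total signal. By this measure the bound for PA was 1.93-fold over PAA, 1.71-fold over AA and 1.5-fold over PP. The probe named for human miR-217, described below, was detected on PAA and PP too, at 113 and 124 before scaling. It had 145 on PA from 2 passing spots, so these bounds rest on the zebrafish probe alone. The first 2 bounds, 0.94 and 0.78 on the log2 scale, did not hold in the authors' value table. There PAA minus PA was -0.66 and PA minus AA 0.54. The PA value was itself below the BLANK 95th percentile of its array (209.1). Set against that percentile on the dimmer array, a bound above 1 remained only for PAA, at 1.76-fold. Spots of 1 pixel made up 12 of the 16, and the 2 brightest PA spots covered 38 and 31 pixels.

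Taking the acinar probes as a group, 41 of 48 spots had been kept, 35 were of 1 pixel and 14 passed. A printed spot was entered in the scanner settings as 130 microns wide, which is 13 pixels across or about 133 pixels in area. The image software drew kept miR-375 spots with a median of 40.5 pixels in PAA, 52 in PA, 10 in AA and 86 in PP, and the AA spots covered only 3 to 15 pixels. Small spots were common on these arrays, with 33.4% of zebrafish spots at 1 pixel in PAA, 30.2% in PA, 40.8% in AA and 36.2% in PP, and 38, 33, 36 and 31 of the 40 BLANK spots. Bright spots could also be small, as the miR-216b spot of 6407 at 5 pixels and the miR-216a spot of 3080 at 2 pixels, and the part of spot finding in these values was not tested.

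**Figure D2:**
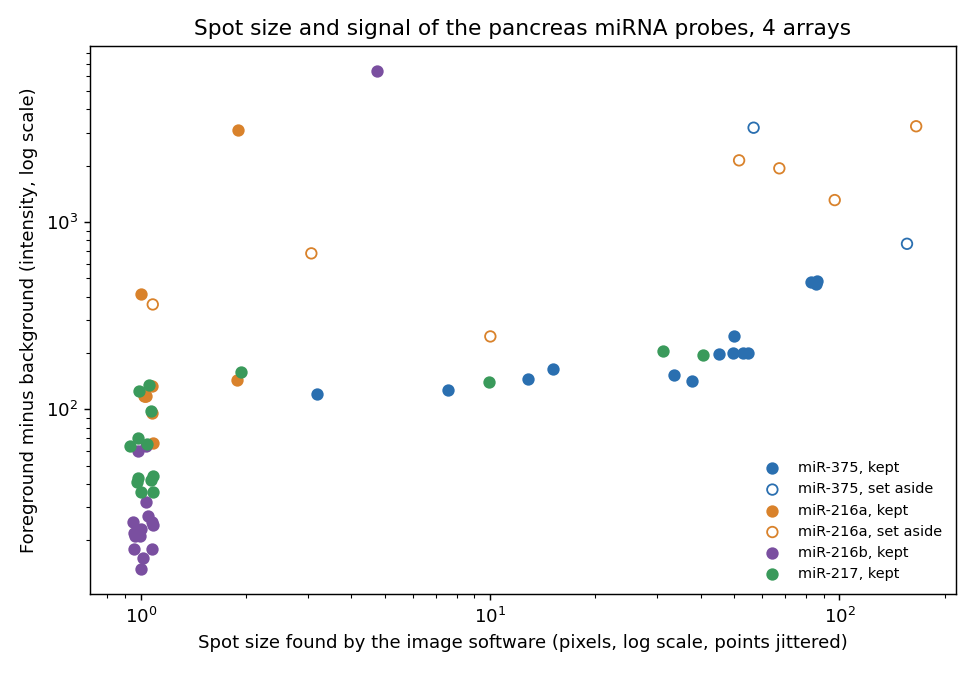
Spot size (pixels, log scale, points shifted slightly sideways) against signal (foreground minus local background, log scale) for all spots of the pancreas miRNA probes on the 4 arrays, filled where kept and open where set aside. miR-375 spots cover 3 to 144 pixels, whereas 35 of the 48 spots of miR-216a, miR-216b and miR-217 stand at 1 pixel.

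Between the hybrid forms and AA, miR-375 stayed within 2-fold. After quantile normalization the log2 values were 7.48 in PAA, 7.62 in PA, 7.37 in AA and 9.06 in PP, which gives the order PP, PA, PAA, AA. The log2 difference was -0.14 (SE between spots 0.16) for PAA minus PA, 0.11 (SE 0.16) for PAA minus AA and 0.26 (SE 0.14) for PA minus AA. The first and the second of these were smaller than their SE, and the third was not, but the SE covers technical spots and gives no test between forms. The sign of PAA minus AA turned with the scaling, since it was -0.34 after median scaling and -0.18 when scaled on the Homo control spots. PAA minus PA was below 0 in all 16 alternative settings, between -0.71 with Homo scaling and -0.06 with the median of passing spots. PA minus AA was above 0 in all 16, between 0.12 and 0.68. None of these differences was beyond 2-fold, while 3.40% of all zebrafish probes measured on both arrays were beyond 2-fold either way in PAA against PA, 12.1% in PAA against AA and 9.77% in PA against AA.

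On the zebrafish probe, miR-375 was lower in every other form than in PP. The log2 difference was -1.58 (SE between spots 0.13) for PAA minus PP, a 2.98-fold higher value on PP. It was -1.43 (SE 0.10) for PA minus PP, or 2.7-fold, and -1.69 (SE 0.10) for AA minus PP, or 3.23-fold. Of all zebrafish probes measured on both arrays, 29.9% were beyond 2-fold in PAA against PP, 25.2% in PA against PP and 24.6% in AA against PP, with 11.7%, 11.5% and 10.8% lower than PP by that much. A 2-fold difference from PP was thus frequent among all miRNAs, and 8 of 137, 7 of 131 and 6 of 130 probes had a more negative difference than miR-375 in these comparisons. The comparisons share the PP array, so a high value on that array enters all 3.

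With the overall shift of each array taken out, PP was still highest. Minus the median of all probes, the log2 difference of miR-375 was -1.64 for PAA against PP, -1.20 for PA against PP and -1.65 for AA against PP under linear scaling. Over the 16 alternative settings the difference of PAA minus PP ranged between -2.02 and -1.03 and that of PA minus PP between -1.76 and -0.88, and AA minus PP, with -2.04 as its most negative value, was beyond 2-fold in 14 of 15 settings. A further setting, which required a value above the BLANK 95th percentile on at least 1 array, removed AA minus PP altogether, as miR-375 was under it on both arrays. The values nearest to 0 came from the authors' value table, in which the local background had not been subtracted, with miR-375 at 269 in PAA, 299 in PA, 276 in AA and 550 in PP. In that table PA and AA were not beyond 2-fold of PP.

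**Figure D3:**
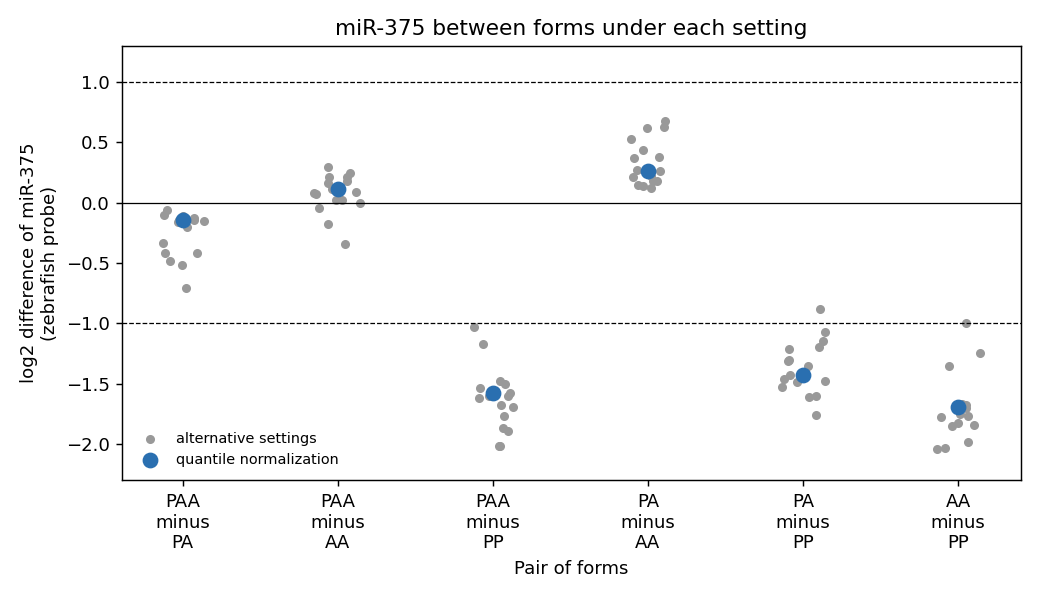
log2 difference of miR-375 (zebrafish probe) for each pair of forms. Large points give the quantile-normalized value, small grey points the alternative settings, and dashed lines 2-fold; the pairs with PP lie between -2.04 and -0.88 and all other pairs within 2-fold.

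A second probe on the chip carried miR-375 and did not show the higher PP level. The zebrafish probe was also named for pufferfish and chicken, and the second probe for human, mouse and opossum. On the second probe the kept spots gave signals of 624 and 610 on PAA, with 486 and 450 set aside, and 554, 529 and 441 on PA, with 466 set aside. They gave 392 and 316 on AA, with 408 and 391 set aside, and 475 alone on PP, with 513, 376 and 1672 set aside. PAA was brightest, PP lay within the range of PA, and AA was dimmest. The local background of the second probe was 152 to 159 on PP, 87 to 98 on PAA, 93 to 200 on PA and 90 to 97 on AA. For the 3 kept PP spots of the zebrafish probe it was 93 to 98. The part of this background in the PP value of the second probe was not tested.

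Without scaling, the log2 difference of PAA minus PP was 0.38 on the second probe, a 1.3-fold higher value on PAA, and -1.48 on the zebrafish probe. That of PA minus PP was 0.09 on the second probe and -1.15 on the zebrafish probe. AA minus PP had the same sign on both, at -0.43 on the second and -1.78 on the zebrafish probe. Without scaling the probes thus had opposite signs for the hybrid forms and the same sign for AA, whereas with Homo scaling the second probe had -0.17 for PAA minus PP and -0.07 for PA minus PP, the sign of the zebrafish probe at a smaller size. Because only 1 spot of the second probe had been kept on PP, the median of all 4 spots, set aside or not, was also taken: it was 548 in PAA, 497.5 in PA, 391.5 in AA and 494 in PP on the second probe, and 175, 223.5, 136.5 and 479.5 on the zebrafish probe. On this measure PAA was 1.11-fold higher than PP on the second probe and 2.74-fold lower on the zebrafish probe. The difference between PP and the hybrid forms therefore rested on the zebrafish probe alone. In the linear scalings the second probe stayed within 2-fold in every pair, with PAA minus PP between -0.17 and 0.38.

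**Figure D4:**
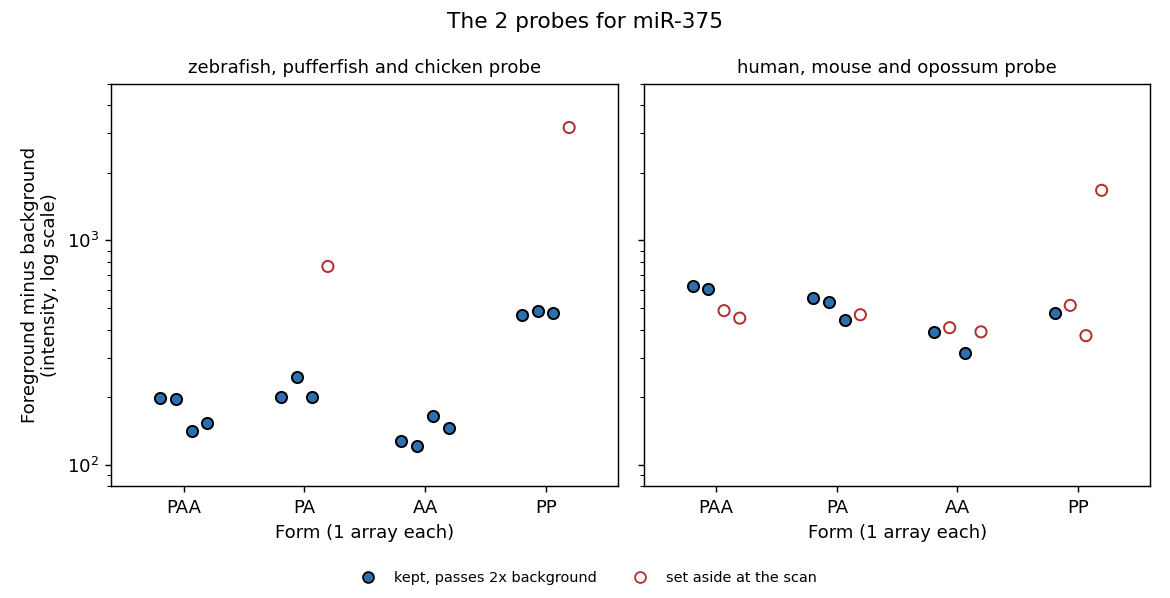
Signal of each spot (foreground minus local background, log scale) of the zebrafish, pufferfish and chicken probe and of the human, mouse and opossum probe for miR-375 on the PAA, PA, AA and PP arrays, filled where kept and open where set aside. The kept PP spots stand at 466 to 483 on the first probe, above the other forms, and at 475 on the second, below PAA.

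The place of the spots on the slide differed between probes and moved with the spots lost. Each probe was printed in an upper and a lower block. The lower block of the zebrafish miR-375 probe lost 22.4% of its spots in PAA, 54.6% in PA, 42.9% in AA and 57.1% in PP, and its upper block 0.51%, 9.69%, 0% and 2.55%. Both upper miR-375 spots of PP, 466 and 483, had been kept, as had 1 of the lower ones, 476. The higher PP signal of this probe was thus present in both blocks.

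Probes of other species were read for the acinar miRNAs too. The probe named for human miR-216 and its counterparts had signals of 205, 187, 161 and 160 in PAA, 281, 263, 125 and 130 in PA, 180, 182, 179 and 169 in AA, and 188, 55, 127 and 89 in PP, with 3 of the PP spots at 1 pixel. It passed on all 4 arrays, with geometric means of 177, 186, 177 and 129, or 7.47, 7.54, 7.47 and 7.01 on the log2 scale. The SD between spots was 0.17 in PAA, 0.63 in PA, 0.05 in AA and 0.54 in PP on the log2 scale. PAA and AA had the same value, and no form differed from PA or PP by more than the SD of that array. In PA the spots of 281 and 263 had local backgrounds of 202 and 161, and those of 125 and 130 had 88 and 87. The PA, AA and PP values were under the BLANK 95th percentile of their array (209.1, 202.8 and 515.9). The probe named for human miR-217 had geometric means of 113 on PAA, 145 on PA and 124 on PP and was not detected on AA. The mouse miR-216b probe was detected on PA alone, at 172, and the mouse miR-217 probe on no array. The human miR-217 value of PA rested on 2 passing spots of 94 and 224 (SD 0.89 on the log2 scale), a range that held every passing spot of PAA and PP, so these forms were not ordered by that probe. The mouse miR-216b value of PA came from spots of 167 and 178.

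PA and PAA can be set against the mean of the parental genomes, to ask whether a hybrid level is that of its genomes added up. Scaled to the total signal, miR-375 had 215 on PA where the mean of AA and PP was 318, a log2 ratio of -0.56 (0.677 of the expected value). It had 161 on PAA where 2 parts AA and 1 part PP gave 259, a log2 ratio of -0.68 (0.624 of the expected value). Over all zebrafish probes measured the median log2 ratio was 0.14 for PA and 0.19 for PAA. On the zebrafish probe miR-375 was thus below its expected value and the usual miRNA slightly above. Neither value was beyond 2-fold, as 12.1% of all probes were in PA and 10.5% in PAA. The expected values rest on the PP signal of the zebrafish probe, 496 after scaling. With the same scaling, the second probe was higher in both hybrids than in AA and PP alike. Its log2 difference from AA was 0.72 for PAA and 0.52 for PA, and from PP 0.23 for PAA and 0.03 for PA. On that probe and with that scaling the hybrids were therefore above any mean of AA and PP, with only 1 spot kept on PP. With Homo scaling they lay between AA and PP instead. The difference was then -0.17 for PAA and -0.07 for PA from PP, and 0.33 and 0.42 from AA.

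The zebrafish probes closest to miR-375 in their pattern over the 4 arrays were miR-10b, miR-9\* and let-7g. After each probe was centred on its own mean, their root mean square difference from miR-375 was 0.07, 0.27 and 0.30 on the log2 scale, against a median of 0.79 and a maximum of 2.31 over 113 probes detected on all arrays. All 3 were brightest on PP, with log2 values of 8.79 for miR-10b, 8.31 for miR-9\* and 8.71 for let-7g. All 3 were under the BLANK 95th percentile on PA, AA and PP, where 53.7%, 42.9% and 19.9% of all detected probes were above it. With 4 arrays such likeness is a description only.

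Other miRNAs of islet cells were read beside miR-375. miR-7a, which is abundant in islets and also in brain, had a geometric mean signal of 163 in PAA, 155 in PA, 134 in AA and 306 in PP, where it rested on 2 spots with an SD of 0.78 on the log2 scale. Its difference from PP was -0.77 (SE 0.62) for PAA, -1.02 (SE 0.60) for PA and -0.89 (SE 0.55) for AA, with a wide spread between spots. That spread is technical and gives no test between forms. Over all 4 kept spots the median was 134.5 in PAA, 138.5 in PA, 134.5 in AA and 144 in PP, so that the higher PP value came from the spots that passed. miR-7b had 135 on PAA, 107 on AA and 186 on PP and was not detected on PA. Of the 7 listed islet-expressed miRNAs other than miR-375, which also include miR-9, miR-153a, miR-153b, miR-153c and miR-184, 3 of 7 were lower than PP on PAA, 3 of 6 on PA and 4 of 7 on AA, with median log2 differences of 0.01, -0.05 and -0.02 against 0.09, 0.02 and 0.01 over all probes. No common direction was seen in the list, and miR-9 and miR-153c, the brighter members, are also brain miRNAs.

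Some markers of each pooled tissue were detected on every array, but not each marker. miR-128 was not detected on PAA and PA, miR-194a on PAA and AA, and miR-124 and miR-133c on AA. On PP all 5 muscle markers were under the BLANK 95th percentile, and on PA and AA all but miR-1. Only 19.9% of all detected zebrafish probes were above it on PP, 53.7% on PA and 42.9% on AA. The liver list was measured by 3 of 4 probes in PAA, 4 in PA, 3 in AA and 4 in PP, with summed signals of 27500, 25400, 21700 and 22700, nearly all from miR-192. miR-192, a miRNA of liver and gut, was the brightest zebrafish probe on every array at 27100 in PAA, 24900 in PA, 21300 in AA and 21900 in PP. miR-122, the miRNA most typical of liver cells, had 259 in PAA, 217 in PA, 226 in AA and 164 in PP, and on PP it was under the BLANK 95th percentile. After quantile normalization miR-122 was higher than PP by 0.70 (SE 0.12) on PAA, 0.41 (SE 0.12) on PA and 0.84 (SE 0.05) on AA, the opposite direction to miR-375 on the zebrafish probe. The liver list did not move as one, as miR-194b differed from PP by -0.63 (SE 0.47) on PAA, -0.50 (SE 0.47) on PA and -0.07 (SE 0.54) on AA, and miR-194a by -2.23 (SE 0.48) on PA, the same direction as miR-375. In PA against PP, 1 liver probe was higher and 2 were lower, with a median of -0.25, and miR-192, at the top of every array, has no difference under quantile normalization.

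The muscle list had summed signals of 1960 in PAA, 1470 in PA, 907 in AA and 992 in PP, and the brain list 10700, 7020, 8480 and 6150. These sums are unscaled and carried by few bright probes. After quantile normalization the brain miRNAs miR-138 and miR-132 were higher than PP beyond 2-fold on PAA, by 1.06 (SE 0.09) and 1.13 (SE 0.07) on the log2 scale. No listed brain probe was beyond 2-fold of PP on PA or AA. The brain list medians against PP were 0.40 on PAA, -0.13 on PA and 0.39 on AA. miR-1, a miRNA of skeletal and heart muscle, was higher than PP beyond 2-fold in every form, by 2.15 (SE 0.06) on PAA, 1.40 (SE 0.02) on PA and 1.25 (SE 0.07) on AA on the log2 scale. Among the 3 muscle comparisons with PP it was the only listed muscle miRNA beyond 2-fold, and the list medians were 0.32, 0.37 and 0.26. Of the listed muscle probes 3 were higher than PP and 2 lower on PAA and on PA, and 3 were higher and 1 lower on AA. The muscle marker miR-1 thus differed from PP beside miR-375 and in the opposite direction, while the muscle list did not move as one. The part of the tissue make-up of the pools in the level of miR-375, which is also a pituitary miRNA, was not tested. Neither the probe nor the pool separates islets from pituitary, and no marker of the pituitary was among the lists read here.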

How the data were processed

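Total RNA of 1 pool per form was hybridized by the authors to a multi-species miRNA chip. The deposited scanner files hold foreground and local background intensity for 5040 spots in 24 subarrays, not background-subtracted or normalized, and a column of other values, 1 for spots kept and 0 for spots set aside in the deposited files; the reason for setting a spot aside is not given. The authors' deposited value table, used as an alternative only, holds intensity that equals the geometric mean of the kept foreground times a factor per array, within 0.1%. Spots were quantified in QuantArray, per the file headers.

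Background was subtracted per spot. Values are mean log2 signals of passing spots (foreground at least 2 times background, at least 2 of 4 spots). Detected probes numbered 168 in PAA, 164 in PA, 154 in AA and 156 in PP, summed signals were 147505 to 162967, and 7.68% to 19.3% of zebrafish spots had been set aside. Differences used quantile normalization over zebrafish probes, and additivity and the miR-217 bounds used total-signal scaling. The number of arrays limits the precision, and the SE covers spots of 1 array only. Python 3.11.15 with numpy 2.4.6 and pandas 2.3.3, and R 4.3.3 with limma 3.58.1 for normexp, were used. Pair differences under quantile, median and total-signal scaling were tested on simulated data, and the additivity ratios and bounds were not.

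The named miRNAs are the 4 members, the 3 probes nearest in pattern to a member detected on all arrays, members of 4 tissue lists, and probes of other species for the same miRNAs. Members, lists and this rule were chosen with earlier results of these data known. Alternatives were other scalings, normexp background correction, spot filters, each technical spot left out, a 1.5-fold limit and the authors' table. Probe sequences and genome coordinates were not used here.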

Additional observations from a re-analysis of the deposited data

How the results depend on the processing

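miR-375 was the only pancreas miRNA measured in every comparison, joined by miR-216a in PA against AA. On the zebrafish probe it gave 1 count beyond 2-fold in each comparison with PP and 0 elsewhere. The second probe had only 1 passing spot on PP, under the limit for detection, so it could not be counted in the comparisons with PP. Without a filter on dim spots the counts were 1 of 4 in PAA against PA, 3 of 3 in PAA against PP, 1 of 4 in PA against AA, 3 of 3 in PA against PP, 3 of 3 in AA against PP, 2 of 3 for PA and 1 of 3 for PAA against expectation, where 30.0% to 33.3% of all zebrafish probes were beyond 2-fold in the PP pairs, 6.19% to 16.9% in the other pairs and 17.6% to 17.8% against expectation. With spots set aside at the scan included they were, of 2 each, 1 in PAA against PA, 1 in PAA against AA, 1 in PA against AA, 2 in PA against PP, 2 in AA against PP, 1 for PA and 2 for PAA against expectation, where the shares of all probes were 29.8% to 35.4%, 10.2% to 18.7% and 17.6% to 20.8%. In the authors' value table they were, of 4 each, 1 in PAA against PA, 2 in PAA against PP, 2 in PA against PP, 2 in AA against PP and 2 for PA against expectation, where the shares were 18.1% to 22.6%, 3.40% to 5.52% and 6.25% to 8.33%. For PAA against expectation, Homo scaling and a 1.5-fold limit each gave 1 of 1, miR-375, with 16.1% and 30.6% of all probes. In the PP pairs without a filter on dim spots, both directions occurred. miR-217 was above PP by 1.29 on PAA, 2.26 on PA and 1.01 on AA on the log2 scale. miR-375 and miR-216b were below PP, the latter with the PP spot of 6407 among its 4 spots. In the authors' value table the counts of PA and AA against PP were miR-216a and miR-216b, both lower than PP. With spots set aside at the scan included, the count in PAA against PA was miR-216a, at 3.41, and in PAA against AA also miR-216a, at 2.28. Without a filter on dim spots the count in PAA against PA was miR-216a, at 1.15, with the PAA spot of 3080 among its spots. What else entered these shifts in the counts was not tested. The other 114 recomputed counts were within 1.5 times of the main count. Leaving out spots of 1 pixel, an alternative chosen after seeing the data, took miR-216a off both arrays, and PA lost it with technical spot 1 or 2 left out or 3 passing spots required. Requiring a value above the BLANK level on at least 1 array left no miRNA to count in AA against PP. No paired analysis was possible because each form had 1 array, and for the same reason no replicate could be left out.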
